A study of Mus musculus with 28 samples.

Results

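The comparison described here set mouse liver at day 13 of a carbon tetrachloride (CCl4) experiment against mouse liver at day 3 of it. Its members are the 4 arrays whose titles name CCl4 and day 13 (2 arrays) or day 3 (2 arrays), of 28 arrays in the whole study. All 4 livers came from C57BL/6 mice and all had received CCl4, and the labels call the arrays of each time biological replicates. Total RNA of each liver was labelled with Cy3 and hybridised beside a Cy5-labelled commercial mouse reference RNA (Stratagene), so a level is given as log2 of Cy3 over Cy5 and says how the liver compares with that reference for the same probe. Undamaged C57BL/6 livers of the same study, labelled adult liver (2 arrays) and whole liver (2 arrays), lay on other slides and are quoted as a description without a test. The source label of adult liver names wildtype mice, and those of whole liver and CCl4 liver name no genotype. The labels name CCl4 treatment with 13 or 3 days, without saying whether it was given once or repeatedly, and give neither dose, route, age nor sex. They also do not say whether the arrays of a time came from separate animals, so p-values measure differences against the spread between arrays. For each gene that spread was pooled over all 28 arrays in 13 groups, other tissues and cells included.

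CCl4 is converted to a reactive radical by cytochrome P450 enzymes of the hepatocytes around the central vein, which then die. The liver clears the dead cells, activates matrix-producing stellate cells and replaces the lost hepatocytes by cell division, and after a single injury it resolves the scar and restores the zones of the lobule. Pericentral hepatocytes are defined by Wnt signals from the central vein and capture ammonia as glutamine, whereas periportal hepatocytes run the urea cycle and gluconeogenesis. In bulk liver RNA, fewer cells of a type and less RNA per cell cannot be told apart.

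The 4 arrays lay on 1 slide, with 61.4 and 62.0% of probes well above background in Cy3 at day 13 and 61.6 and 62.7% at day 3. Day 13 took positions 1 and 2 of the slide and day 3 positions 3 and 4, so position and time cannot be told apart. Levels on the paired arrays of a time correlated across 20338 genes with r = 0.985 at day 13 and 0.989 at day 3, a description, since genes are not independent. The fetal marker Afp, the pericentral marker Glul and the Kupffer cell gene Clec4f were measured well above background on the 4 arrays. This did not hold for all genes of their lists, and 1 of 17 pericentral genes was well above background on none of the 4.

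The arrays of the times also differed in sex-linked transcripts. The Y-linked gene Ddx3y had log2 levels of -1.86 and -1.71 on the day 13 arrays, against 2.27 and 2.02 on the day 3 arrays, and Xist, the X-inactivation RNA, of 2.26 and 2.43 on the day 13 arrays, against -3.47 and -3.79 on the day 3 arrays. Ddx3y was well above background on both day 3 arrays and on neither day 13 array, and Xist the other way round. The labels give no sex, and the sex of the donor animals and the time after CCl4 cannot be told apart on these 4 arrays. Genes on chromosomes X and Y were therefore left out of all counts, and autosomal genes known for sex-biased liver expression are described apart.

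Day 13 replicate 1 stood apart in another respect. Over 15 genes of fast skeletal muscle, a family put together after its values were seen, the mean level was 3.03 on day 13 replicate 1 and -0.05 on day 13 replicate 2, against -0.76 and -0.70 on the day 3 arrays. The adipose genes Adipoq and Cfd, from a list of 8 adipose and mesothelial markers, had levels of 3.17 and 0.22 at day 13, against 0.00 and 0.83 at day 3, and of 6.84 and 0.60 at day 13, against 0.21 and 2.64 at day 3. Over those 8 markers, of which none passed the test and 1 was higher at an unadjusted p under 0.05, the mean level was 0.72 and -0.88 at day 13, against -0.92 and -0.49 at day 3. Leaving out day 13 replicate 1 changed several of the counts given below, as did leaving out other arrays.

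Of 20350 autosomal genes tested, 443 were higher and 711 lower at day 13, or 5.67% in all, with 2.18% higher and 3.49% lower. A gene was called when the limma p-value, adjusted over all 21070 genes of the table, was under 0.05 and the log2 change, day 13 minus day 3, was at least 1 in size. The median change of all autosomal genes was 0.0065. The lists below were not tested against these shares, and a count of a few members says little about a list. In 66.3% of the genes the arrays of the times did not overlap, so a lack of overlap alone says little, and it held for 1153 of the 1154 called genes. Rises made up 38.4% of the calls, against 51.8% when Cy3 was used alone without the reference channel (466 higher and 433 lower, with the median of all genes at 0.22). Leaving out day 13 replicate 1 gave 341 higher and 545 lower calls, leaving out day 13 replicate 2 gave 280 and 481, leaving out day 3 replicate 1 gave 263 and 528, and leaving out day 3 replicate 2 gave 290 and 503.

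Set beside the 4 undamaged livers, most genes called lower read higher at day 3 than those livers did. Both day 3 arrays lay above all 4 undamaged arrays in 90.9% of the genes called lower, against 19.7% of all genes. Both day 3 arrays lay below all 4 undamaged arrays in 69.6% of the genes called higher, against 16.2% of all genes. The day 13 arrays lay above the undamaged livers in 31.1% of the genes called higher, against 11.3% of all genes. They lay below the undamaged livers in 16.9% of the genes called lower, against 9.93% of all genes. These livers lay on other slides, and no test was made across them. The calls were made on the same day 3 and day 13 values, which by itself moves the shares of called genes away from those of all genes.

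**Figure D1:**
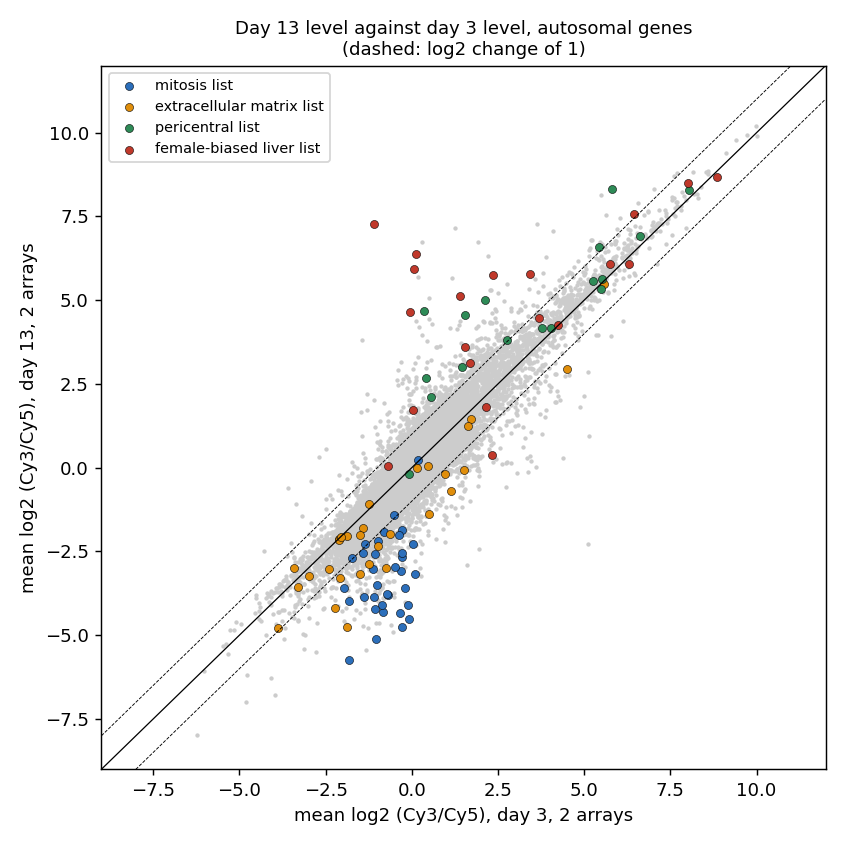
Mean log2 (Cy3/Cy5) at day 13 (vertical axis) against day 3 (horizontal axis), 2 arrays each, for the 20350 autosomal genes in grey. The 30 called genes of the mitosis list (blue) and the 11 of the extracellular matrix list (orange) lie under the lower dashed line, a log2 change of -1, while the 8 called rises of the pericentral list (green) and the 9 of the female-biased liver list (red) lie above the upper one.

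Cell division genes fell in large number. Of 34 genes of a mitosis list, 30 fell, against 3.49% of all autosomal genes, and none rose, with a median change of -2.48, or -2.43 with undetected genes at their bounds. Birc5 encodes survivin, a subunit of the chromosomal passenger complex, and its probe lies at 117716959 to 117717018 on chromosome 11 (mm9). Its log2 levels were -5.02 and -4.50 on the day 13 arrays, against -0.18 and -0.37 on the day 3 arrays. The day 13 arrays lay far below those of day 3 and within the range of the undamaged livers (-5.32 to -4.33). The log2 change was -4.49 ± 0.35 (SE, n = 2 arrays a time, limma adjusted p = 4.97e-08), a 22.4-fold fall. Cdc20 activates the anaphase-promoting complex, the ubiquitin ligase that starts chromosome separation, and had -4.49 and -4.52 at day 13, against 0.08 and -0.23 at day 3, a change of -4.43 ± 0.34 (adjusted p = 4.38e-08).

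The nuclear antigen Mki67, in use as a proliferation marker, followed them. It read -5.06 and -5.15 at day 13, against -0.94 and -1.12 at day 3, and its change was -4.08 ± 0.30 (adjusted p = 8.05e-08). Ccnb1 encodes cyclin B1, the partner of the mitotic kinase Cdk1. Cyclin B1 had levels of -4.45 and -4.23 at day 13, against -0.23 and -0.48 at day 3, with a change of -3.99 ± 0.22 (adjusted p = 1.11e-09), and its 3 probes gave changes of -3.99 to -1.97. Cdk1 itself changed less, with -1.93 and -1.76 at day 13, against -0.11 and -0.47 at day 3, and a change of -1.56 ± 0.28 (adjusted p = 0.00104), and was not called with Agilent's own log ratio (adjusted p = 0.0697). Top2a, the DNA topoisomerase of dividing cells, had -3.08 and -2.95 at day 13, against -1.05 and -1.18 at day 3, and a change of -1.90 ± 0.27 (adjusted p = 8.07e-05). In each of these 6 genes the arrays of the times did not overlap, and the day 3 levels lay above all undamaged livers with a value, which for Mki67 were 3 arrays. Bub1, Ttk, Kif11 and Anln, mitotic kinases, a spindle motor and a cytokinesis scaffold, were the 4 members not called, with changes of 0.07, -0.90, -0.93 and -0.97, and all but Bub1 were above background on neither day 13 array. Both day 3 arrays exceeded all 4 undamaged livers in 25 of 32 members with a value on each, and both day 13 arrays did so in 2. Over all genes the shares were 19.7% at day 3 and 11.3% at day 13.

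DNA replication genes fell with the mitotic ones. Of 27 autosomal members of the replication list, 23 fell and 1 rose, with a median change of -1.99. Of all autosomal genes 3.49% were called lower and 2.18% higher. Mcm6 belongs to the replicative helicase, and its levels were -4.61 and -4.77 on the day 13 arrays, against -0.83 and -0.37 on the day 3 arrays. Its change was -4.09 ± 0.29 (adjusted p = 4.97e-08). Uhrf1, which keeps DNA methylation through replication, read -4.68 and -4.59 at day 13, against -1.16 and -0.73 at day 3 (-3.69 ± 0.27, adjusted p = 3.22e-08), and the helicase subunit Mcm4 read -4.56 and -4.45 at day 13, against -1.79 and -1.53 at day 3 (-2.84 ± 0.27, adjusted p = 8.36e-07). Mcm10, a replication initiation factor, went the other way, with 2.10 and 2.14 at day 13, against 1.05 and 1.12 at day 3, and a change of 1.03 ± 0.21 (adjusted p = 0.00271). Its call was lost, by the fold or by the p, in 2 of 16 alternatives (adjusted p 0.0371 to 0.269), and both times lay below its undamaged range of 2.57 to 3.06. Ccne2, the cyclin E2 gene, was above background on neither day 13 array and was at least 2.7-fold lower there (Cy3 alone, after loess and Aquantile scaling, as for the other bounds below). Cdc45, a helicase cofactor, and Tk1, thymidine kinase, with changes of -0.92 and -1.05, were not called. At day 3, 22 of 27 members lay above all undamaged livers on both arrays, and at day 13 2 did. The shares of all genes were 19.7% at day 3 and 11.3% at day 13.

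Promoters of mitotic genes are shown here because 30 of the 34 listed genes fell, and motifs long known from cell cycle promoters can be read in them. Each sequence is the 250 bases before the start of the gene in RefSeq (build GRCm38.p6), 5′ to 3′ on the strand of the gene, with motif matches in capitals, searched on both strands. The motifs are CCAAT, the box bound by the factor NF-Y, which reads ATTGG on the opposite strand. They also include TTTGAA, the cell cycle homology region, which on the opposite strand reads TTCAAA. The last is GGCGGGA, a site of the E2F type, which reads TCCCGCC when reversed. No matches overlap in these 5 windows, which are chr11:117848987-117849236 (plus strand), chr13:100786487-100786736 (minus strand), chr4:118437344-118437593 (minus strand), chr10:69352913-69353162 (minus strand) and chr11:99024190-99024439 (minus strand).
Birc5: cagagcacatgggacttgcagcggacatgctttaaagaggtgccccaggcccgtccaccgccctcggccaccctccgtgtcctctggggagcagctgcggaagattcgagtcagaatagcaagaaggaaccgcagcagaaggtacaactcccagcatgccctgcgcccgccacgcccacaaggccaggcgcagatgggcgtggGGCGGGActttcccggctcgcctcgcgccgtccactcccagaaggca
Ccnb1: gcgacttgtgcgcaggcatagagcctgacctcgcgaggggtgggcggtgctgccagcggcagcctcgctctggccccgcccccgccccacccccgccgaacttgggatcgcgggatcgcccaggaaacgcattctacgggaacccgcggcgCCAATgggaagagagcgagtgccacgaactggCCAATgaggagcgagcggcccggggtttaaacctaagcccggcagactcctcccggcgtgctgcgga
Cdc20: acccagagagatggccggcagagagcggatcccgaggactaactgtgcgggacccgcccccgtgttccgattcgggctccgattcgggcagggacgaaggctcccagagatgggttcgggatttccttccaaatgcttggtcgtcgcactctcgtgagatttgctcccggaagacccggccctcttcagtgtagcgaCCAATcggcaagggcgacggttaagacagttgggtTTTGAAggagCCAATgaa
Cdk1: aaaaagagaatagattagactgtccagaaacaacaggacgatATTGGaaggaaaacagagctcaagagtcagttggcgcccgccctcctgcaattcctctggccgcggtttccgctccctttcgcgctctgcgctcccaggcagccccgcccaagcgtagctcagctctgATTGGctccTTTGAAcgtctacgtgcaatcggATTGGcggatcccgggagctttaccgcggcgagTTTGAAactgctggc
Top2a: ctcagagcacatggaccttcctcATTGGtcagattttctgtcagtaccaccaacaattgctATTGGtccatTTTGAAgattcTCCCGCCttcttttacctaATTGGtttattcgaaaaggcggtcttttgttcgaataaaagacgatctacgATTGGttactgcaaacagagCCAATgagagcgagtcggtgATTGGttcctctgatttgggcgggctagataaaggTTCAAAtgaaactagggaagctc

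The Ccnb1 window held CCAAT 2 times, 99 and 67 bases before the start, and the Cdc20 window 2 times, 53 and 8 bases before it. Top2a had 6 such boxes and Cdk1 had 3. TTTGAA stood 18 bases before the start of Cdc20, 71 and 15 bases before that of Cdk1, and 179 and 23 bases before that of Top2a. Birc5 had no match to either and 1 match to GGCGGGA, 47 bases before its start. Among 30 promoters of 28 of the 34 mitosis genes, 23 (76.7%) held CCAAT, against 33.8% of all 32851 promoters of this length. TTTGAA was in 36.7% of them, against 16.0% of all, and GGCGGGA in 26.7%, against 9.75% of all. The 27 promoters of 22 replication genes held CCAAT in 51.9%, TTTGAA in 11.1% and GGCGGGA in 25.9%. A match of letters is no evidence of binding, and these shares carry no test.

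Other cell cycle genes were among the 10 largest falls of the whole comparison. Cdkn3, a phosphatase that acts on cyclin-dependent kinases, read -2.48 and -2.36 at day 13, against 1.92 and 1.99 at day 3, a change of -4.38 ± 0.33 (adjusted p = 3.32e-08). Stmn1, the microtubule-destabilising protein stathmin, read -4.94 and -4.86 at day 13, against -0.66 and -0.44 at day 3, and changed by -4.35 ± 0.34 (adjusted p = 4.57e-08). Ncapg, a subunit of condensin I, read -5.58 and -5.30 at day 13, against -1.23 and -1.43 at day 3, and changed by -4.11 ± 0.26 (adjusted p = 6.36e-09), although its 2 probes disagreed in size (-4.11 to -0.76). At day 13 these 3 genes read within or below the range of the undamaged livers. D17H6S56E-5, named as in the gene table, fell by 4.53 ± 0.26 (adjusted p = 1.11e-09). Akr1c18, the progesterone-inactivating 20-alpha-hydroxysteroid dehydrogenase, read 0.85 and 1.02 at day 13, against 5.18 and 5.12 at day 3, a change of -4.21 ± 0.55 (adjusted p = 3.46e-05).

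Few p53 targets were called. Cdkn1a encodes the kinase inhibitor p21, a target of p53, and read -2.47 and -3.09 on the day 13 arrays, against 0.11 and 0.09 on the day 3 arrays. The change was -2.88 ± 0.38 (adjusted p = 3.61e-05), with no overlap of the arrays, and 1 day 13 array lay inside and 1 below the undamaged range of -2.83 to -1.38. Phlda3, another p53 target, changed by -1.42 ± 0.33 (adjusted p = 0.00904), a call lost in 4 of 16 alternatives (adjusted p 0.0724 to 0.0979). They were the 2 members that passed the call, of 15 in the p53 and growth arrest list, whose median change was -0.63. Of all autosomal genes 3.49% were called lower. The count of 2 was 1 without day 13 replicate 2, without day 3 replicate 1 and with Cy3 alone. Ccnd1, cyclin D1, which carries growth signals into the G1 phase, read -1.0002 and -0.99 at day 13, against 1.62 and 1.77 at day 3, and fell by 2.69 ± 0.45 (adjusted p = 0.000438), although 1 whole liver array read 0.40.

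Among oncofetal genes, Afp had the largest fall of all genes in the comparison. Alpha-fetoprotein is the main plasma protein of the fetal liver and is nearly silent in the adult. Its probe lies at 90937781 to 90937840 on chromosome 5 (mm9) and read -2.25 and -2.31 on the day 13 arrays, against 5.59 and 4.61 on the day 3 arrays. Both day 13 arrays fell inside the undamaged range of -2.62 to -1.61, while both day 3 arrays lay far above it. The change was -7.38 ± 0.99 (adjusted p = 4.51e-05), a 166-fold fall.

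Of 10 oncofetal genes, 4 fell, against 3.49% of all autosomal genes, and none rose. Ly6d, a cell surface protein of the Ly6 family, read -0.39 and 0.98 at day 13, against 4.48 and 4.30 at day 3, and changed by -4.09 ± 0.52 (adjusted p = 2.15e-05). Tff3, a trefoil peptide of mucous epithelia, read 0.26 and 0.01 at day 13, against 3.52 and 2.24 at day 3, and changed by -2.75 ± 0.29 (adjusted p = 2.35e-06), with 1 of the day 13 arrays not well above background. The call of Tff3 was lost with Agilent's own log ratio (adjusted p = 0.256). Scd2, a stearoyl-CoA desaturase of the fetal liver, read -5.64 and -5.34 at day 13, against -2.29 and -3.26 at day 3, and changed by -2.71 ± 0.32 (adjusted p = 1e-05). The fetal growth factor Igf2 read -1.79 and -1.74 at day 13, against -2.02 and -1.90 at day 3, and the neighbouring imprinted RNA H19 read -0.71 and -1.15 at day 13, against -0.55 and -0.83 at day 3. Neither was called (adjusted p = 0.769 and 0.842).

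**Figure D2:**
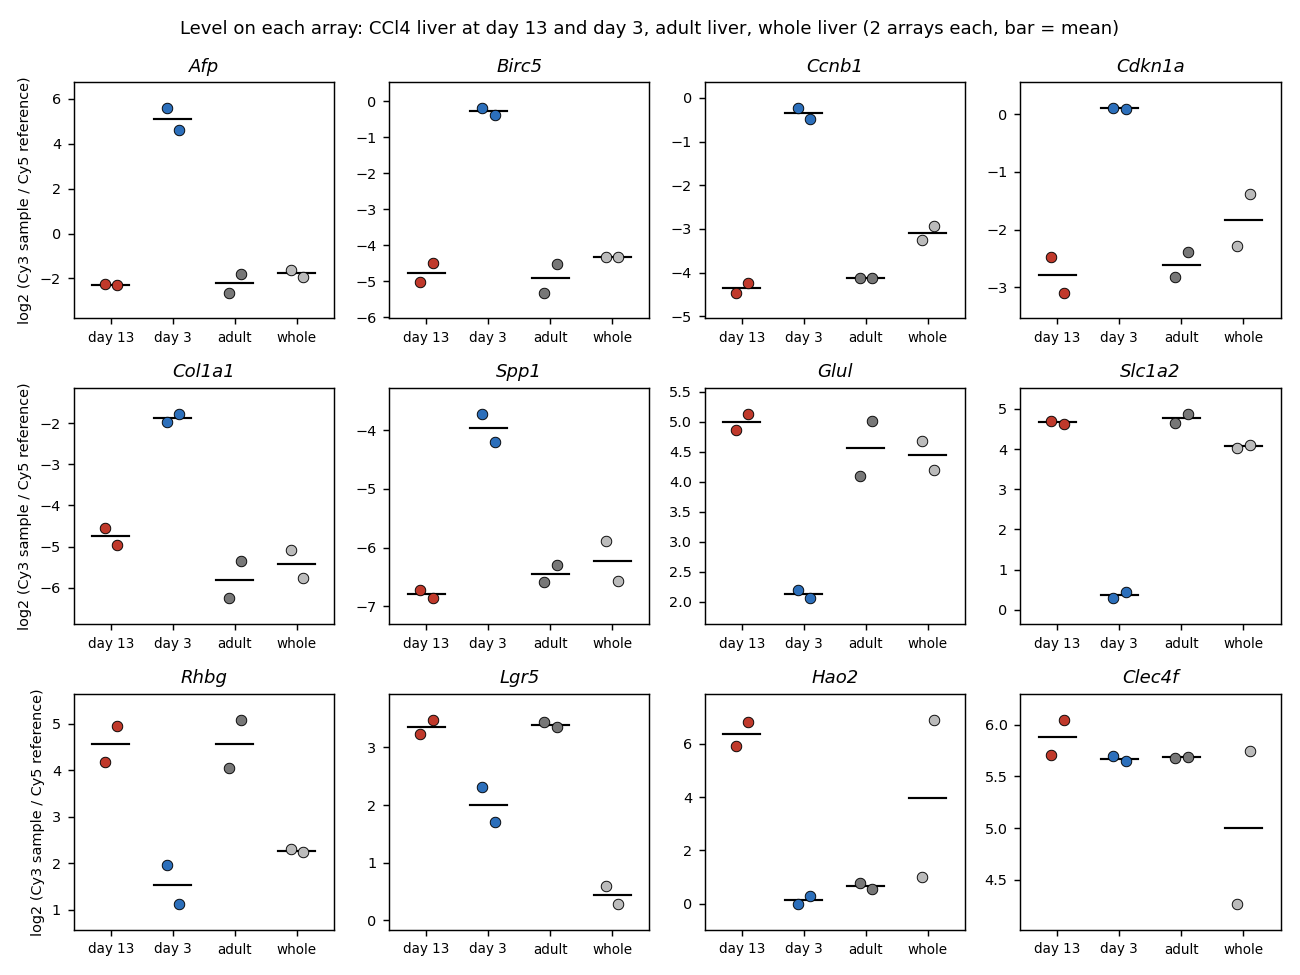
Log2 (Cy3/Cy5) of 12 genes on each array of CCl4 liver at day 13 (red) and day 3 (blue) and of undamaged adult (dark grey) and whole liver (light grey), with bars at the mean of 2 arrays and a separate vertical scale for each gene. Afp, Birc5, Ccnb1, Cdkn1a, Col1a1 and Spp1 are high at day 3 alone, Glul and Slc1a2 are low at day 3 alone, Hao2 reads 5.91 and 6.83 at day 13 and differs between the whole liver arrays, and Clec4f reads nearly alike at both times.

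Some genes of scar matrix were lower at day 13. Of 30 extracellular matrix genes, 11 fell, against 3.49% of all autosomal genes, and none rose, with a median change of -0.58. Col1a1 encodes the alpha 1 chain of type I collagen, the main collagen of liver scar, and its probe lies at 94813075 to 94813134 on chromosome 11 (mm9). It read -4.54 and -4.97 on the day 13 arrays, against -1.97 and -1.77 on the day 3 arrays. The day 13 arrays lay below day 3 without overlap and slightly above the undamaged range of -6.26 to -5.08. The change was -2.88 ± 0.35 (adjusted p = 1.21e-05), a 7.35-fold fall, for the brightest of 3 probes, whose changes ran over -2.88 to -0.08.

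Col3a1, the type III collagen chain, and Col1a2, the partner chain of Col1a1, moved the same way. Col3a1 read -2.94 and -3.06 at day 13, against -0.82 and -0.65 at day 3, and changed by -2.27 ± 0.39 (adjusted p = 0.000689), and Col1a2 read -4.03 and -4.36 at day 13, against -2.26 and -2.17 at day 3, and changed by -1.98 ± 0.42 (adjusted p = 0.00528). Averaging the probes of each gene, which disagreed (-2.27 to -0.03 and -1.98 to -0.10), brought the changes to -0.87 and -1.04, neither of them called. The other calls of the list, named after their values were seen, were the basement membrane chains Col4a1 and Col4a2, the type V chains Col5a1 and Col5a2, the crosslinking enzyme Loxl2, and Postn, Fbn1 and Sparc, with changes between -1.87 and -1.16. Fn1 (fibronectin) and Dcn (decorin) changed by -0.15 ± 0.53 and -0.41 ± 0.53 and were not called. At day 3, 18 of the 30 genes lay above all undamaged livers on both arrays, against 19.7% of all genes. At day 13, 8 of the 30 did, against 11.3% of all genes, with no test across these slides. The count of 11 was 6 without day 13 replicate 2, 5 without day 3 replicate 2, 6 with probes averaged and 5 with Agilent's own log ratio.

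Contractile and stellate cell genes gave a mixed picture. Of 24 members, 4 fell, against 3.49% of all autosomal genes, and none rose, with a median change of -0.74. Tagln, the actin-binding protein transgelin, read -2.82 and -3.13 at day 13, against -0.44 and 0.07 at day 3, and changed by -2.79 ± 0.33 (adjusted p = 1.82e-05). Vim, the intermediate filament of mesenchymal cells, read -6.12 and -6.44 at day 13, against -4.09 and -4.08 at day 3, and changed by -2.19 ± 0.41 (adjusted p = 0.00121), a call lost with Cy3 alone (adjusted p = 0.0568). Myl9, a myosin light chain, read -2.59 and -2.54 at day 13, against -0.12 on the 1 day 3 array that kept its spot after the removal of outliers, and changed by -2.44 ± 0.40 (adjusted p = 0.000887), a value in which that single array was taken to have the spread of the other groups. Acta2, the smooth muscle actin of myofibroblasts, read -1.80 and -2.65 at day 13, against -1.41 and -1.36 at day 3. Its change of -0.84 ± 0.59 was not called (adjusted p = 0.575), and its 4 probes spread over -1.57 to 0.16. The count of 4 was 2 without day 3 replicate 2.

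Of 19 matrix proteases and their inhibitors, 3 fell, against 3.49% of all autosomal genes, and none rose. Plat, tissue plasminogen activator, read -2.31 and -2.37 at day 13, against -0.72 and -1.26 at day 3, and changed by -1.35 ± 0.23 (adjusted p = 0.000497). Adamts1 and Adamts2, secreted metalloproteases of which Adamts2 trims procollagen, changed by -1.01 ± 0.28 and -1.17 ± 0.33 (adjusted p = 0.0251 and 0.0287), calls lost in 7 of 16 alternatives (adjusted p 0.0845 to 0.33) and 7 of 16 alternatives (adjusted p 0.0623 to 0.327). Mmp13, the collagenase linked to scar resolution in rodents, read -1.46 and -1.34 at day 13, against -0.88 and -0.76 at day 3, close to background, and was not called (adjusted p = 0.683). The count of 3 was 1 with any 1 of the 4 arrays left out, with Agilent's own log ratio and with Cy3 alone.

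Several bile duct markers were lower at day 13, among them genes that injured hepatocytes are known to make. Of 22 bile duct markers, 8 fell, against 3.49% of all autosomal genes, and none rose, with a median change of -0.72. Spp1, osteopontin, a secreted protein of duct cells, macrophages and stellate cells, read -6.72 and -6.87 on the day 13 arrays, against -3.72 and -4.20 on the day 3 arrays, and changed by -2.83 ± 0.52 (adjusted p = 0.00122). Both day 13 arrays lay below the undamaged range of -6.58 to -5.90. Krt18, a keratin that hepatocytes and duct cells share, read -0.81 and -0.94 at day 13, against 1.59 and 1.19 at day 3, and changed by -2.26 ± 0.34 (adjusted p = 0.000149). The duct regulator Sox9, also switched on in hepatocytes after injury, read -1.87 and -1.73 at day 13, against -0.11 and -0.12 at day 3, and changed by -1.69 ± 0.27 (adjusted p = 0.000268).

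Further duct markers varied. Prom1, the surface protein CD133, read 1.52 and 2.77 at day 13, against 4.43 and 4.03 at day 3, and changed by -2.08 ± 0.46 (adjusted p = 0.00544), a call lost in 4 of 16 alternatives (adjusted p 0.0757 to 0.602). Krt19, a keratin of duct cells that hepatocytes lack, read -2.87 and -3.25 at day 13, against -3.07 and -1.06 at day 3. Its arrays overlapped, the change of -0.996 was not called (adjusted p = 0.36), and without day 3 replicate 2 it was 0.010. Epcam and Krt7, further duct markers, changed by 0.07 ± 0.51 and -0.44 ± 0.35 and were not called. Cftr and Cldn4 were above background on none of the 4 arrays. The count of 8 was 5 without day 13 replicate 1, with probes averaged, with Agilent's own log ratio and with Cy3 alone.

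Some markers of recruited macrophages were lower at day 13. Of 28 macrophage genes, 4 fell, against 3.49% of all autosomal genes, and none rose, with a median change of -0.50. Ccr2, the chemokine receptor that brings monocytes into injured liver, read 0.72 and 0.52 at day 13, against 3.14 and 3.32 at day 3, and changed by -2.61 ± 0.35 (adjusted p = 4.51e-05). Trem2, a lipid receptor of macrophages at scars, read -2.08 and -2.30 at day 13, against -0.25 and 0.17 at day 3, and changed by -2.15 ± 0.49 (adjusted p = 0.00716). The scavenger receptor Msr1 changed by -1.55 ± 0.32 (adjusted p = 0.00299). Lgals3, galectin-3, read -4.47 and -4.66 at day 13, against -3.45 and -3.17 at day 3, and changed by -1.26 ± 0.25 (adjusted p = 0.00415).

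Clec4f, a lectin made by Kupffer cells, read 5.71 and 6.05 at day 13, against 5.69 and 5.65 at day 3, and changed by 0.21 ± 0.80 (adjusted p = 1). Cd68, a lysosomal protein of all macrophages, read -1.45 and -1.52 at day 13, against -0.56 and -0.06 at day 3, without overlap, but its change of -1.18 ± 0.48 was not called (adjusted p = 0.167). The count of 4 was 2 without day 13 replicate 2, 1 without day 3 replicate 2, 2 with Cy3 alone, and 8 both with array weights and in a fit of the 4 arrays alone, which each also called 1 rise. No member of the neutrophil (10 tested), lymphocyte (17) or endothelial (24) lists was called, with median changes of 0.20, 0.40 and -0.13. At an unadjusted p under 0.05, 2 neutrophil and 2 lymphocyte genes were higher and 3 endothelial genes lower. Neutrophil genes were called higher in 2 cases with Agilent's own log ratio, in 3 both with array weights and in a fit of the 4 arrays alone, and in 1 both with Cy3 alone and with no background subtraction. None of the lymphocyte or endothelial genes was called with any of these.

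Few chemokines were called. Of 22 tested, 1 rose and 2 fell, against 2.18% higher and 3.49% lower of all autosomal genes. Cxcl9, a T cell attractant induced by interferon gamma, read 4.33 and 5.12 at day 13, against 2.55 and 2.28 at day 3, and changed by 2.31 ± 0.64 (adjusted p = 0.0261), a call lost in 6 of 16 alternatives (adjusted p 0.0563 to 0.42). Cxcl1, a neutrophil attractant, read -3.24 and -3.03 at day 13, against 0.52 and -0.13 at day 3, and changed by -3.33 ± 0.80 (adjusted p = 0.0103), a call lost in 4 of 16 alternatives (adjusted p 0.0641 to 0.115). Cxcl14, made by epithelia, read 0.17 and 0.06 at day 13, against 2.59 and 2.66 at day 3, and changed by -2.51 ± 0.47 (adjusted p = 0.00146). No rise was left with any 1 array left out or with Agilent's own log ratio, and array weights gave 4 falls.

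**Figure D3:**
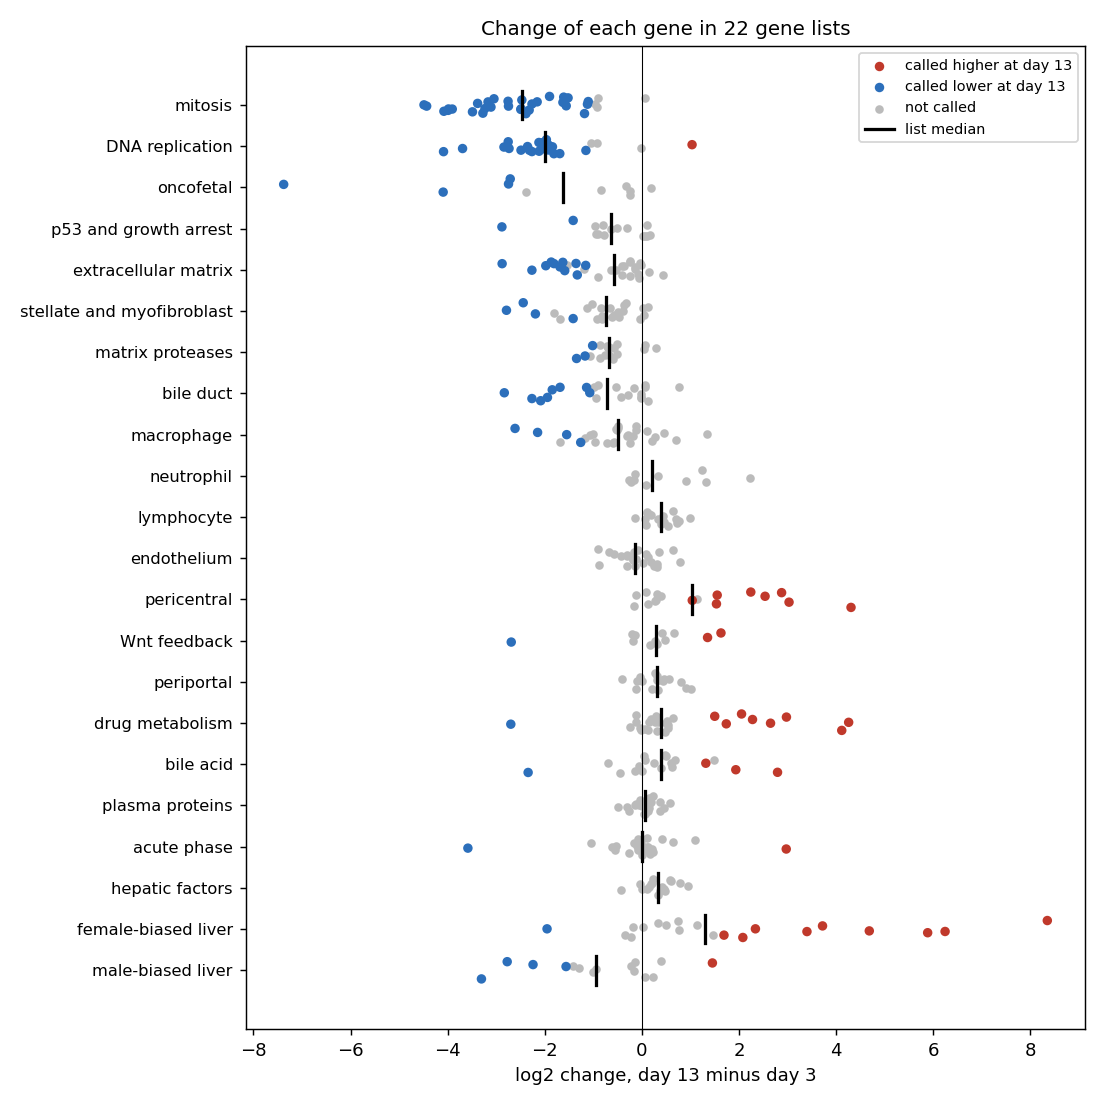
Log2 change, day 13 minus day 3 (horizontal axis), of each autosomal gene tested in 22 gene lists (rows), with called rises in red, called falls in blue, other genes in grey and a black bar at the list median. The mitosis and replication rows lie mostly left of -1, the pericentral, drug metabolism and female-biased rows reach to the right, and the plasma protein, periportal, hepatic factor and endothelial rows hold no called gene.

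Pericentral hepatocyte genes were often higher at day 13. Of 17 autosomal members, 8 rose, against 2.18% of all autosomal genes, and none fell, with a median change of 1.04. Glul encodes glutamine synthetase, confined in the healthy lobule to the last hepatocytes around the central vein, and its probe lies at 155756750 to 155756809 on chromosome 1 (mm9). It read 4.87 and 5.14 on the day 13 arrays, against 2.20 and 2.05 on the day 3 arrays. The day 3 arrays lay below and the day 13 arrays partly above the undamaged range of 4.10 to 5.01. The change was 2.88 ± 0.39 (adjusted p = 5.33e-05), a 7.35-fold rise, and its 3 probes gave 0.79 to 3.27.

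Transporters that serve glutamine synthetase rose with it. Slc1a2, a glutamate transporter of the same cells, with its probe at 102617706 to 102617765 on chromosome 2 (mm9), read 4.69 and 4.63 on the day 13 arrays, against 0.28 and 0.43 on the day 3 arrays. The day 3 arrays lay far below the undamaged range of 4.02 to 4.88, and the day 13 arrays inside it. The change was 4.31 ± 0.28 (adjusted p = 6.36e-09), a 19.8-fold rise, with 1 of the day 3 arrays not above background, and with Agilent's own log ratio it was 3.42 with an adjusted p of 0.0606. Rhbg, an ammonium transporter, read 4.18 and 4.96 at day 13, against 1.97 and 1.11 at day 3, and changed by 3.03 ± 0.64 (adjusted p = 0.00362). Without day 13 replicate 2 or without day 3 replicate 2 Rhbg was not called (adjusted p = 0.0685 and 0.0703).

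Oat, ornithine aminotransferase, which feeds glutamate into the same cells, read 2.30 and 3.04 at day 13, against 0.57 and 0.28 at day 3, and changed by 2.24 ± 0.26 (adjusted p = 9.1e-06). Cyp2a5, a coumarin hydroxylase, Tbx3, a Wnt-dependent transcription factor, the phosphatase Lhpp and the sterol 27-hydroxylase Cyp27a1 also rose, by 2.54 ± 0.72, 1.55 ± 0.35, 1.54 ± 0.28 and 1.04 ± 0.27. Their adjusted p-values were 0.0297, 0.00645, 0.00105 and 0.0178. The pericentral P450 gene Cyp2e1, whose enzyme activates CCl4, read 5.46 and 5.66 at day 13, against 5.23 and 5.27 at day 3, and its change of 0.31 ± 0.57 was not called (adjusted p = 0.98). With Cy3 alone, without the reference channel, it was called higher, with a change of 4.39 (adjusted p = 1.40e-05). Cyp1a2 and Cyp2c29 changed by 0.38 ± 0.20 and 0.30 ± 0.43 and were not called. The count of 8 was 4 without day 13 replicate 2, 4 without day 3 replicate 2 and 5 with Agilent's own log ratio.

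Wnt target genes were read next to these. Of 12 members of the Wnt feedback list, 2 rose and 1 fell, against 2.18% higher and 3.49% lower of all autosomal genes. The fall was Ccnd1, and with Agilent's own log ratio none rose. Lgr5, the R-spondin receptor by which other cells of the study were sorted, has its probe at 114888847 to 114888906 on chromosome 10 (mm9) and read 3.24 and 3.48 on the day 13 arrays, against 2.30 and 1.71 on the day 3 arrays. Its arrays did not overlap, and undamaged livers read 3.44 and 3.35 (adult liver) and 0.60 and 0.28 (whole liver). The change was 1.35 ± 0.37 (adjusted p = 0.023). The call was lost without day 13 replicate 1 (adjusted p = 0.0806), without day 13 replicate 2 (0.184), without day 3 replicate 2 (0.278) and with Agilent's own log ratio (0.412), with changes of 1.05 to 1.65 over all alternatives.

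Sp5, a transcription factor induced by Wnt, read 2.77 and 2.70 at day 13, against 1.07 and 1.13 at day 3, and changed by 1.63 ± 0.32 (adjusted p = 0.00228). It was not called with Agilent's own log ratio or with Cy3 alone (adjusted p = 0.257 and 0.156). Axin2, a negative regulator of the pathway and a widely used reporter of it, read 0.69 and 0.36 at day 13, against 0.37 and 0.11 at day 3. The change of 0.28 ± 0.23 was not called (adjusted p = 0.674).

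Periportal genes and the main secretory output of hepatocytes gave no calls. With 5.67% of all autosomal genes called, no call in lists of this size says little. None of 17 periportal genes passed, with a median change of 0.31, and Cps1, which brings ammonia into the urea cycle, read 9.58 and 10.20 at day 13, against 10.14 and 9.89 at day 3. None of 23 secreted plasma protein genes passed, with a median of 0.070, and Alb (albumin) read 3.99 and 4.12 at day 13, against 4.07 and 4.33 at day 3. Of 17 hepatocyte transcription factors none passed, with a median of 0.33. At an unadjusted p under 0.05, 3 periportal genes and 1 transcription factor were higher, none was lower and no plasma protein gene differed. By the same rule 1594 of all 20350 autosomal genes were higher and 2138 lower. With Cy3 alone 2 periportal genes and 1 transcription factor were called higher, and 1 periportal gene was in a fit of the 4 arrays alone and with array weights. The whole liver arrays, which enter the estimate of the spread, lay at least 1 log2 unit apart in 7 of 17 periportal genes. They did so in 14 of 23 plasma protein genes and 5 of 17 transcription factors, against 5.33% of all genes.

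The acute phase list had 1 rise and 1 fall among 26 genes, with a median change of 0.0022. Of all autosomal genes 2.18% were higher and 3.49% lower. Lcn2, lipocalin-2, an iron-siderophore trap made by stressed hepatocytes and neutrophils, read 0.16 and -0.10 on the day 13 arrays, against 3.64 and 3.59 on the day 3 arrays, and changed by -3.58 ± 0.36 (adjusted p = 1.25e-06). Both day 3 arrays lay well above the undamaged range of -0.67 to 0.48. Orm3, an orosomucoid, read 4.10 and 4.67 at day 13, against 1.21 and 1.61 at day 3, and changed by 2.97 ± 0.55 (adjusted p = 0.00123), which was not called with Agilent's own log ratio (adjusted p = 0.399). Saa1, serum amyloid A, and Hamp, the iron hormone hepcidin, read 1.94 and 2.60 at day 13, against 3.33 and 2.45 at day 3, and 3.17 and 3.24 at day 13, against 3.07 and 3.34 at day 3, and neither was called.

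Drug metabolism genes rose in part. Of 28 tested, 8 rose and 1 fell, against 2.18% higher and 3.49% lower of all autosomal genes, with a median change of 0.39. Cyp2c54, a P450 of the 2C family, read 6.42 and 6.21 on the day 13 arrays, against 2.07 and 2.32 on the day 3 arrays, and changed by 4.12 ± 0.23 (adjusted p = 1.11e-09). Its day 3 arrays lay below the undamaged range of 3.67 to 6.64 and its day 13 arrays inside it. Cyp2c38 of the same family read 4.22 and 4.53 at day 13, against 0.02 and 0.22 at day 3, above background on neither day 3 array, and was at least 11.7-fold higher at day 13 (adjusted p = 4.22e-06). Cyp4a10, a fatty acid omega-hydroxylase under PPAR-alpha, read 6.76 and 7.40 at day 13, against 4.25 and 3.95 at day 3, and changed by 2.98 ± 0.52 (adjusted p = 0.000761).

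Cyp2c55 was the fall, with -1.86 and -1.45 at day 13, against 1.01 and 1.08 at day 3, and a change of -2.70 ± 0.46 (adjusted p = 0.000558). P450 genes of 1 family are close in sequence, so a probe can read more than 1 of them. In 6 of the 8 genes that rose, the whole liver arrays themselves lay at least 1 log2 unit apart, and without such genes 2 rises remained, Cyp2c54 and the bilirubin-conjugating Ugt1a1 (2.05 ± 0.42, adjusted p = 0.00281). The count of 8 was 5 without day 13 replicate 2, 5 without day 3 replicate 2 and 3 with Agilent's own log ratio.

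In bile acid metabolism 3 of 19 genes rose and 1 fell, against 2.18% higher and 3.49% lower of all autosomal genes. Cyp8b1, which makes cholic acid, read 3.09 and 4.15 on the day 13 arrays, against 0.79 and 0.87 on the day 3 arrays, and changed by 2.79 ± 0.48 (adjusted p = 0.000559). The undamaged livers ran over 0.35 to 5.31, so both times lay inside their range, and the call was lost with Agilent's own log ratio (adjusted p = 0.314). Slc51b, a subunit of the basolateral bile acid exporter, read 1.42 and 1.61 at day 13, against 3.95 and 3.76 at day 3, and changed by -2.34 ± 0.29 (adjusted p = 1.84e-05). Akr1d1 and Slco1a4, a bile acid reductase and an uptake carrier, rose by 1.32 ± 0.35 and 1.93 ± 0.51, calls lost in 5 of 16 alternatives (adjusted p 0.104 to 0.341) and 5 of 16 alternatives (adjusted p 0.0554 to 0.204). Cyp7a1, the rate-limiting enzyme of the pathway, read 5.85 and 7.31 at day 13, against 4.99 and 5.89 at day 3, and its change of 1.14 ± 0.48 was not called (adjusted p = 0.183). The list held no call with Agilent's own log ratio, 5 rises and no fall with Cy3 alone, and 1 rise when either day 3 array was left out.

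Some lipid genes were called, beside 2.18% higher and 3.49% lower of all autosomal genes. Of 20 genes of fatty acid oxidation 3 rose, with a list median of 0.53. At an unadjusted p under 0.05, 9 of them were higher and none lower, against 1594 higher and 2138 lower of all 20350 autosomal genes. Acot1, an acyl-CoA thioesterase, rose by 1.79 ± 0.45, and Vnn1, a pantetheinase, by 1.51 ± 0.35. They lost the call in 4 of 16 alternatives (adjusted p 0.0645 to 0.184) and 5 of 16 alternatives (adjusted p 0.0505 to 0.347). The count of 3 was 1 without either day 13 array, without day 3 replicate 1, with Agilent's own log ratio and without genes that differed between whole livers, 2 without day 3 replicate 2 and 6 with Cy3 alone. Of 18 cholesterol synthesis genes 1 rose, Hmgcs1 (1.15 ± 0.26, adjusted p = 0.0067), a call lost in 5 of 16 alternatives (adjusted p 0.0777 to 0.308). Of 11 fatty acid synthesis genes none was called, against 1 with Cy3 alone and 2 at an unadjusted p under 0.05. Among 14 clock genes, Tef and Nr1d2, both clock-controlled transcription factors, rose by 1.17 ± 0.20 and 1.20 ± 0.28, and the hour of sampling is not in the labels. Both calls were lost without day 13 replicate 2, and over all alternatives Tef lost its call, by the fold or by the p, in 2 of 16 alternatives (adjusted p 0.0251 to 0.174) and Nr1d2 in 3 of 16 alternatives (adjusted p 0.052 to 0.128).

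Growth factor and stress genes gave a few calls each, beside 2.18% higher and 3.49% lower of all autosomal genes. Of 21 growth factor genes, 3 rose and 2 fell. Fgf21, a fasting hormone of the liver, read 3.16 and 1.22 at day 13, against -1.34 and -1.26 at day 3, above background on neither day 3 array, and was at least 10.47-fold higher over both day 13 arrays (adjusted p = 0.000245). The day 13 arrays lay far apart, and without day 13 replicate 1 its log2 change was 2.52 (adjusted p = 0.0115), against 3.49 with it. Ghr, the growth hormone receptor, read 2.72 and 2.84 at day 13, against 1.45 and 1.43 at day 3, and changed by 1.34 ± 0.21 (adjusted p = 0.000194). Pdgfa, a platelet-derived growth factor that acts on stellate cells, read -2.40 and -2.44 at day 13, against -0.41 and -0.27 at day 3, and changed by -2.08 ± 0.23 (adjusted p = 6.12e-06). Hgf, the hepatocyte mitogen, read 1.79 and 1.96 at day 13, against 2.95 and 2.80 at day 3, and its change of -0.999 ± 0.53 was not called (adjusted p = 0.358). The list had 2 rises with any 1 array left out, and 1 fall without day 13 replicate 2 or day 3 replicate 1.

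Of 15 oxidative stress genes 1 rose and 3 fell, among them Srxn1 (sulfiredoxin, -1.32 ± 0.24, adjusted p = 0.000972) and the glutathione transferase Gsta1 (-2.24 ± 0.56, adjusted p = 0.0129), which lost its call in 4 of 16 alternatives (adjusted p 0.0848 to 0.203). Me1, malic enzyme, rose by 1.61 ± 0.40 (adjusted p = 0.012), a call lost in 5 of 16 alternatives (adjusted p 0.0578 to 0.153). The 3 oxidative stress falls were 2 without either day 13 array and with Cy3 alone, and 1 without day 3 replicate 2 and with Agilent's own log ratio. Of 14 endoplasmic reticulum stress genes, 3 fell, the secretory pathway genes Sdf2l1 and Creld2 and the asparagine synthetase Asns, by 1.79, 1.57 and 1.41. Without day 13 replicate 2 none of them was called, and Sdf2l1 lost its call in 3 of 16 alternatives (adjusted p 0.0622 to 0.252) and Asns in 2 of 16 alternatives (adjusted p 0.104 to 0.17). Chac1, a glutathione-degrading enzyme, rose instead, with -0.34 and -0.85 at day 13, against -3.43 and -3.72 at day 3, and a change of 2.98 ± 0.40 (adjusted p = 4.34e-05). Of 7 erythroid genes, Tfrc, the transferrin receptor, fell by 1.39 (adjusted p = 0.00871), a call lost in 4 of 16 alternatives (adjusted p 0.0602 to 0.138), and it is made by dividing cells of many kinds. The 8 genes of the pancreatic acinar list had a median change of -0.10, no call and no gene at an unadjusted p under 0.05.

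Sex-biased liver genes were among the largest rises of the comparison. Of 20 female-biased genes 9 rose and 1 fell, against 2.18% higher and 3.49% lower of all autosomal genes. Their median change was 1.30. Hao2, A1bg and Sult3a1 of this list were among the 10 largest rises. Hao2, a hydroxyacid oxidase, read 5.91 and 6.83 at day 13, against -0.03 and 0.27 at day 3, A1bg, a plasma glycoprotein, 5.70 and 6.17 at day 13, against 0.02 and 0.09 at day 3, and the sulfotransferase Sult3a1 5.86 and 3.41 at day 13, against -0.02 and -0.08 at day 3. None of the 3 was above background on a day 3 array, and Hao2 and Sult3a1 were at least 44.2-fold and 15.5-fold higher at day 13 (adjusted p = 0.000275 and 0.0473). The change of A1bg was 5.89 ± 1.18 (adjusted p = 0.00242), a size that is uncertain because its day 3 level was not above background. Sult3a1 lost its call in 10 of 16 alternatives (adjusted p 0.0531 to 0.417). Sult1e1, the estrogen sulfotransferase, was the fall, with 0.31 and 0.44 at day 13, against 2.94 and 1.71 at day 3, and -1.95 ± 0.60 (adjusted p = 0.0457), lost in 9 of 16 alternatives (adjusted p 0.0501 to 0.475).

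Of 15 male-biased genes 4 fell and 1 rose, against 3.49% lower and 2.18% higher of all autosomal genes. Their median change was -0.95. Gstp1, a glutathione transferase, read -0.49 and -0.67 at day 13, against 2.61 and 2.83 at day 3 (-3.30 ± 0.48, adjusted p = 0.000111), and Cyp4a12a, a male P450, 0.83 and 1.16 at day 13, against 3.96 and 3.58 at day 3 (-2.77 ± 0.73, adjusted p = 0.0189). Hsd3b5, a steroid reductase of male liver, changed by -2.24 ± 0.48 (adjusted p = 0.00399), but by 0.0074 with Agilent's own log ratio. Cyp4a12b rose by 1.45 ± 0.34 (adjusted p = 0.00905), and its probe may also read the near-identical Cyp4a12a. The count of 4 falls was 2 without day 13 replicate 1, 1 without day 13 replicate 2, 3 without day 3 replicate 1 and 2 without day 3 replicate 2, 1 both with Agilent's own log ratio and with Cy3 alone, and 7 both with array weights and in a fit of the 4 arrays alone. The female-biased count of 9 was 5 without day 13 replicate 2 and 6 when either day 3 array was left out. The rise among male-biased genes and the fall among female-biased ones were lost with Agilent's own log ratio and with Cy3 alone.

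Among the undamaged livers, Ddx3y read 2.35 and -0.69 on whole liver replicates 1 and 2. Those arrays lay at least 1 log2 unit apart in 19.9% of the genes called higher, 5.34% of those called lower and 5.33% of all genes. Without such genes the comparison had 356 rises and 675 falls. The mitosis count stayed at 30 falls, the pericentral count became 7 rises and the matrix count stayed at 11 falls. The bile duct count became 6 falls and the drug metabolism count 2 rises, whereas the female-biased count became 1 rise and the male-biased list kept no call. That difference between whole livers is itself no measure of sex, and its part in the changes after CCl4 was not tested.

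**Figure D4:**
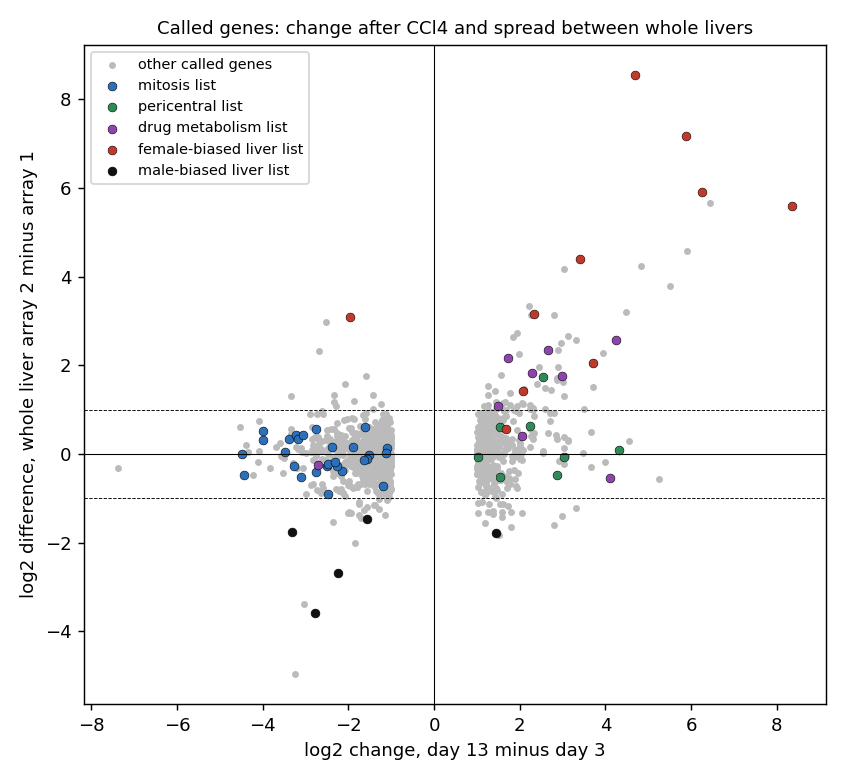
Log2 change after CCl4, day 13 minus day 3 (horizontal axis), against the log2 difference between the whole liver arrays, replicate 2 minus replicate 1 (vertical axis), for the called autosomal genes. Mitosis genes (blue) lie within the dashed lines at -1 and 1, 8 of the 9 female-biased genes that rose (red) lie above them, pericentral genes (green) mostly lie within them, drug metabolism genes are purple, and the male-biased genes (black) lie below them.

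Further large rises are given here, and any part of sex in them was not tested. Slc22a26, an organic anion transporter of the liver, read 6.59 and 6.87 at day 13, against 0.22 and 0.36 at day 3, and changed by 6.44 ± 0.93 (adjusted p = 0.000107), while whole liver read 1.17 and 6.83. Sult2a2, a hydroxysteroid sulfotransferase, read 6.997 and 7.30 at day 13, against 0.64 and 1.86 at day 3, and changed by 5.90 ± 0.81 (adjusted p = 5.58e-05), with 4.46 and 9.03 in whole liver. Dct, known for melanin synthesis, read 6.34 and 7.14 at day 13, against 2.00 and 1.82 at day 3, and changed by 4.83 ± 1.02 (adjusted p = 0.00389), with 4.61 and 8.86 in whole liver and a lost call without day 13 replicate 2 (adjusted p = 0.0583). In these 3 genes whole liver replicate 2 was the higher of its pair, and the Y-linked Ddx3y was the lower on that array. Rgs16, a regulator of G protein signals that liver induces on fasting, read 3.23 and 4.37 at day 13, against -1.34 and -1.55 at day 3, and changed by 5.24 ± 0.39 (adjusted p = 3.28e-08). Its undamaged range of 1.22 to 2.08 lay between the times.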

How the data were processed

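Total RNA of 28 samples was hybridised to 2-colour Agilent arrays, Cy3 for the sample and Cy5 for the reference, with no dye swap in the labels. Per the file headers, the authors' scans were read with Agilent Feature Extraction 10.5.1.1 (8.5.1.1 per the submitters' processing notes), and the deposited files give median spot and background intensity for both dyes with coordinates of build mm9. The deposited value table holds log10 of Cy5 over Cy3, equal to the log ratio in the scanner files (largest difference 0), and served only as an alternative setting, with its sign turned.

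The intensities were background-corrected (normexp, offset 50) and loess-normalised within each array with limma 3.58.1 in R 4.3.3, giving 1639 of 45018 spots, the controls, no weight. Outlier spots (0.688%) were dropped and spots of a probe averaged (41174 probes). A probe was kept if Cy3 was well above background on 2 or more of 28 arrays (31112 probes), and the brightest probe stood for its gene, over 21070 genes. Of their names 16809 were matched to RefSeq and 4261 were kept as in the files. The number of arrays limits the precision. A limma model with a mean for each of 13 groups (15 residual and 4.36 prior degrees of freedom) gave two-sided p-values, adjusted by Benjamini-Hochberg over all 21070 genes. Genes on X and Y (720, of which 8 were called higher and 38 lower) were then left out, and 133 genes had no coordinate. The 2 arrays of a time entered as replicates. The fit was tested on simulated data, where 200 of 20193 genes were made to differ, and in this comparison recovered 23.9, 89.6 and 98.5% of log2 changes of 1, 2 and 3, with 6 false calls. The simulated noise was normal, independent and of 1 spread per gene, as the model assumes, so few false calls followed from its design. Signals of single arrays, sex and slide position were not simulated, so it gives no error rate for the real comparison. Figures used matplotlib 3.10.9.

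Named genes were the 10 largest rises and falls among called genes, the 3 largest in either direction in each of 34 lists, key markers such as Afp, Birc5, Col1a1 and Glul, and sex-linked genes as a check, 109 in all. Other names were chosen after their values were seen. The members and lists were chosen with earlier results of these data known. Lists were described by counts and medians, with no test of the list. A gene well above background on neither array of its lower time has a bound for its fold. Such bounds come from Cy3 levels after loess and Aquantile scaling, and those in the opposite direction were dropped. Alternatives were the log ratio of the authors, Cy3 alone, Aquantile scaling, no background subtraction, other filters, probe averages, the 4 arrays alone, array weights, the slide as a random block, a replicate block, other fold minimums and each array left out. A crossed pairing and the removal of genes that differed between whole livers were added after the data were seen. Some genes are not reported here.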

Additional observations from a re-analysis of the deposited data

Results flagged for a closer look

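Sex-linked transcripts were outside the autosomal comparison, and several differed beyond the test's threshold between the times. Ddx3y, a Y-linked RNA helicase gene, changed by -3.93 (limma adjusted p = 0.000105) and was at least 10.6-fold lower at day 13. Kdm5d, a Y-linked histone demethylase gene, read -1.27 and -1.30 at day 13, against -0.07 and 0.10 at day 3, with a change of -1.30 (adjusted p = 0.00306), which is at least 2.14-fold lower. Xist changed by 5.98 (adjusted p = 0.00195) and was at least 52.3-fold higher at day 13. A further Y-linked gene, Eif2s3y, read -2.30 and -2.20 at day 13, against 1.72 and 1.87 at day 3, a change of -4.04 (adjusted p = 0.000396). All 3 genes with a bound were not well above background on either array of the lower time. The labels name no sex for these livers, so sex and time cannot be told apart, and the part of sex in the autosomal changes was not tested.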

How the results depend on the processing

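Over the alternatives, the 23 replication and 30 mitosis falls stayed within 1.5 times of their counts, except that 13 replication genes fell by a log2 of at least 2. That minimum left 263 calls (93 higher and 170 lower), with 5 pericentral, 2 matrix, 3 bile duct and 2 macrophage genes, and no minimum gave 1775 (702 higher and 1073 lower). With Agilent's own log ratio there were 260 rises, with 5 pericentral, 3 drug metabolism, 5 matrix and 5 bile duct genes. Cy3 alone gave 433 falls, with 5 bile duct and 2 macrophage genes. Averaged probes gave 6 matrix and 5 bile duct genes. The 4 arrays alone gave 8 macrophage genes, and array weights gave 8 macrophage and 7 stellate genes. Without genes that differed between whole livers, 2 drug metabolism and 1 female-biased rises were left. With each array left out in turn, the calls were 761 to 886, the rises 263 to 341, and the falls 481 to 545. The same left 4 to 7 pericentral, 5 to 7 drug metabolism, 5 to 8 matrix, 5 to 7 bile duct, 5 to 7 female-biased, 1 to 4 macrophage and 2 to 4 stellate genes. The fit with a replicate block called 1131 genes (435 higher and 696 lower). The replicate numbers share nothing stated in the labels, the replicate differences of the times correlated with r = -0.108 across genes, and a crossed pairing called 1140. Of the named genes' values, 1489 kept direction and side of the threshold, 159 lost the call, 7 gained it and 8 turned sign. The sign turned for Hsd3b5 (0.0074) and Cps1 (0.31) with Agilent's log ratio, Alb (0.35) with Cy3 alone, and Hamp (0.0038) with no background subtraction. With each array left out in turn, Cps1 ran over -0.43 to 0.18, Hamp over -0.14 to 0.13 and Krt19 over -2.00 to 0.010, turning sign for Cps1 and Hamp (0.030) without day 13 replicate 1 and for Hamp and Krt19 without day 3 replicate 2. The cause was not tested. Of called genes, 32 of the falls were not well above background at day 13 and 15 of the rises not at day 3, where a fold is only a bound. In a fit with an array left out, the single array left in a group was taken to have the spread of the rest.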

Other observations

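Families beyond the lists above are described here. All were put together after their values were seen, so their counts carry no weight as evidence. Of 19 centromere protein genes, which build the kinetochore of dividing chromosomes, 12 fell and none rose, with a median change of -1.55, and Cenpe fell by 3.91. Of 12 tubulin genes 8 fell and none rose (median -1.42), with Tubb6 at -3.21, and 4 fell with Cy3 alone. Of 11 annexins, membrane-binding proteins, 5 fell and none rose (median -0.95), with Anxa2 at -2.29, and 3 fell with Cy3 alone.

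Other families held genes that rose. Of 16 genes that respond to fasting or feeding, 8 rose and none fell (median 1.43), including Arrdc3 at 2.67 and Txnip at 1.87, and the feeding state of the animals is not in the labels. The count was 5 with Agilent's own log ratio and 4 without genes whose whole liver arrays lay at least 1 log2 unit apart. Of 9 genes of growth hormone signalling, 5 rose and none fell (median 1.09), and 3 rises were left without such genes. Among these, Cish and Socs2, feedback inhibitors of the pathway, changed by 2.86 and 2.59. Of 15 sulfotransferase genes, 4 rose and 1 fell (median 0.85), and the whole liver arrays lay at least 1 log2 unit apart in 8 of the 15, without which 1 rise was left. Of 21 organic ion carriers, 4 rose and none fell (median 0.30), and 2 rises were left without such genes.

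Of 15 fast muscle genes 4 rose and none fell (median 2.32, or 2.26 with bounds). Myh2, a fast myosin heavy chain, read 5.98 and 2.43 at day 13, against 0.22 and 0.22 at day 3, and Tnnc2, fast troponin C, read 3.69 and -0.22 at day 13, against -1.39 and -1.22 at day 3. Both were highest on day 13 replicate 1. Without day 13 replicate 1, 1 member was called, and without day 13 replicate 2, 8 were.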
